A study of Schizosaccharomyces pombe with 12 samples.

Results

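The rows described here are the genes of the fission yeast (Schizosaccharomyces pombe) mitochondrial genome, taken as every row whose identifier starts with SPMIT in the deposited tables of ribosome footprints and of total RNA. There are 11 such rows, SPMIT.01 to SPMIT.11, of 5136 in each table. The mutant strain, delta4dus, is taken from its name to be deleted for all 4 Dus (dihydrouridine synthase) genes, dus1, dus2, dus3 and dus4, and it was compared with wild type. Cells were in mid-log growth without cycloheximide. Both strains have replicates A, B and C in each assay, which makes 3 libraries per strain and assay. The footprints were RNase I protected fragments of 28 to 32 nt from monosomes. The labels do not say that the letters are separate cultures, so p-values measure only the spread between these libraries, which may be technical. Those of edgeR also borrow from the spread of other rows, so they do not rest on a row's own replicates alone. Mating type, medium and how the dus loci were deleted are not given in the sources used here.

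Mitochondria keep a small genome of their own, which is transcribed by a dedicated RNA polymerase and translated inside the organelle by mitochondrial ribosomes that differ from those of the cytosol. Its few protein genes encode core subunits of the respiratory chain and of ATP synthase, which must be joined to many subunits made in the cytosol from nuclear genes. Dus enzymes reduce uridine to dihydrouridine in RNA, above all in the D loop of tRNAs. The ASM294v3 reference annotates 11 protein-coding genes on the mitochondrial genome. They are cox1, cox2 and cox3 of cytochrome oxidase, cob (apocytochrome b), atp6, atp8 and atp9 of ATP synthase, rps3 of the mitochondrial ribosome, and 3 genes encoded within introns of cox1 and cob. The same reference lists 25 tRNAs and 2 rRNAs there. None of the 11 SPMIT identifiers is paired with a gene name in the deposited files or in that reference, whose build also differs from the ASM294v2 of the submitters. The rows are therefore named by identifier only, with no length, role, position or sequence, and count levels are not compared between rows as densities.

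Footprint libraries held 601969 to 2591755 counts and total RNA libraries 1886954 to 2199320 counts. Footprints of the 4 dus genes in delta4dus were at 0% (dus1), 12.6% (dus2), 0.401% (dus3) and 35.7% (dus4) of wild type after scaling. Over the 3 delta4dus libraries dus1 kept 0 counts and dus3 kept 2, while dus2 kept 14 and dus4 kept 35, against 128, 263, 71 and 49 in wild type for dus1, dus3, dus2 and dus4. The counts of dus2 and dus4 thus do not by themselves show a deletion of the whole gene, and delta4dus is used as the label of the strain. No library was left out of the main values, but delta4dus replicate A stood apart for the SPMIT rows, and values without it are given below.

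In total RNA, every SPMIT row had 0 counts in every one of the 3 delta4dus and 3 wild-type libraries. A count of 0 allows up to 3 counts per library, which is 1.36 to 1.59 CPM (the count over the total of its library, on the usual CPM scale) and covers counting error only. No SPMIT row passed the filter on low counts there, so none has a total RNA comparison or a translational efficiency, the ratio of footprints to total RNA. The authors' deposited table of comparisons likewise gives no value for the 11 SPMIT rows, which are among 258 rows of 5136 without values. Of those 258 rows in the authors' deposited table, 32 besides SPMIT rows had a mean of at least 20 footprint counts.

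Rows at 0 in all 6 total RNA libraries were rare. They numbered 15 of 5136, and 11 of the 15 were the SPMIT rows. Of 4373 other rows with at least as many footprint counts as the lowest SPMIT row (63 over 6 libraries), 2 were at 0 in total RNA. These were SPAC1705.02, with 662 footprint counts, and ksh1, with 262. The total RNA rows of nuclear genes did not follow their own footprints. Across 5107 nuclear rows, which share libraries and depth, total RNA counts had a Spearman rho of -0.214 with the row's own footprint counts. For the 1919 rows overlapping a coding gene on the opposite strand, rho was 0.707 with the footprints of those partners. In the reference, all 39 features of the mitochondrial genome lie on the same strand, so no SPMIT gene would have a partner there. Of 518 nuclear rows with no gene of any kind on the opposite strand, 3 were at 0 in total RNA (median 59 counts over 6 libraries), against 1 of 4589 rows with such a gene (median 194). The part of strand in the SPMIT values of 0 was not tested.

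**Figure D1:**
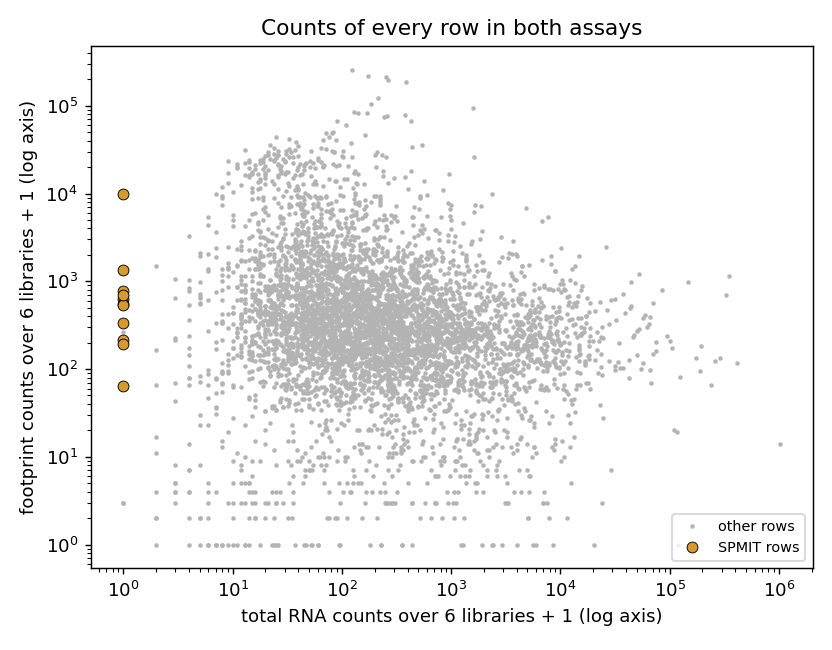
Footprint counts (vertical) against total RNA counts (horizontal) of every row, summed over the 6 libraries of each assay with 1 added, both on log axes; orange circles are the 11 SPMIT rows. All 11 sit at 0 total RNA counts, while their footprint counts run between 63 and 9762.

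In footprints, by contrast, every SPMIT row had counts in all 6 libraries, and all 11 were lower in delta4dus. Summed over the rows, delta4dus replicates A, B and C held 1268, 2804 and 3105 SPMIT counts, against 3991, 1947 and 2008 in wild-type A, B and C. As a share of all footprint counts this was 0.0726%, 0.141% and 0.12% in delta4dus and 0.231%, 0.323% and 0.267% in wild type. Every delta4dus library lay below every wild-type library. The mean share was 0.111% ± 0.0349 in delta4dus and 0.274% ± 0.0464 in wild type (SD, n = 3 each), so the delta4dus share was 40.5% of that in wild type. An exact two-sided permutation test over the libraries gave p = 0.1, the smallest that 3 against 3 can give. These are bulk libraries, and with no total RNA counts, fewer mitochondrial transcripts per cell and fewer footprints per transcript cannot be told apart. Other sources of the difference, in the cells or in the preparation of the libraries, were not tested.

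Of the 11 rows, 10 had enough footprint counts by the rule used here, which asks for edgeR's default filter to be passed and for a mean of at least 20 counts over the 6 libraries. The row left out was SPMIT.09, with a mean of 10.5. All 11 passed the filter and were tested. With edgeR, 11 of 11 fell in delta4dus at an adjusted p under 0.05, where 14.1% of all 4505 rows tested were called lower. The median log2 fold change of delta4dus over wild type was -1.58 for the SPMIT rows and -0.03 for all rows. No row overlapped between the genotypes: its highest delta4dus level was below its lowest wild-type level in 11 of 11, as it was in 19.9% of all rows. Over all rows 654 were called higher and 635 lower. With total counts as library sizes in place of TMM (trimmed mean of M values) scaling, which moved the median of all rows by -0.20, the split was 334 higher (7.41%) and 1397 lower (31%). Relative to the median of all rows, the SPMIT median was -1.55 under both scalings.

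SPMIT.06 held most of the mitochondrial footprints. It had 1009, 1920 and 2274 counts in delta4dus A, B and C, against 2253, 1159 and 1147 in wild type, and ranked 193 of 5136 rows by footprint counts. In CPM, from here on with TMM-adjusted library sizes, its level was 866 ± 208 in delta4dus and 1477 ± 298 in wild type (SD, n = 3 each). Its fall was the smallest of the 11 rows, with a log2 fold change of -0.73 (SE 0.0794, edgeR adjusted p = 3.15e-12).

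SPMIT.01, the row with the next most footprints, had 56, 235 and 222 counts in delta4dus and 435, 200 and 204 in wild type. That is 84.1 ± 45.7 CPM in delta4dus and 266 ± 40.5 CPM in wild type, and a log2 fold change of -1.58 (SE 0.134, edgeR adjusted p = 1.58e-16). The highest delta4dus library, B at 125 CPM, was well below the lowest wild-type library, A at 239 CPM.

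SPMIT.04 fell most. It had 26, 90 and 79 counts in delta4dus and 210, 113 and 111 in wild type, or 32.3 ± 15.9 CPM against 142 ± 31.4 CPM. The delta4dus level was 22.8% of wild type (log2 fold change -2.03, SE 0.16, edgeR adjusted p = 3.72e-18), and 24 of the 4505 rows tested had a lower fold change. The next lowest values were those of SPMIT.07, SPMIT.11 and SPMIT.05, at -1.74, -1.71 and -1.70.

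SPMIT.05 had 40, 108 and 130 counts in delta4dus and 244, 102 and 148 in wild type. SPMIT.11 had 27, 120 and 103 counts in delta4dus and 248, 106 and 100 in wild type. SPMIT.07 had 25, 97 and 73 counts in delta4dus and 176, 96 and 86 in wild type. In all 3 rows the raw counts of the groups overlap, while the CPM levels, which allow for the larger totals of delta4dus B and C, do not. Their delta4dus means were 45.5, 41.2 and 32.5 CPM for SPMIT.05, SPMIT.11 and SPMIT.07, against wild-type means of 157, 141 and 117 CPM. SPMIT.10 was of the same kind, with 31, 85 and 87 counts in delta4dus and 170, 73 and 97 in wild type, and a log2 fold change of -1.61.

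The remaining rows had fewer counts and wider errors. SPMIT.02 had 21, 65 and 55 counts in delta4dus and 108, 41 and 48 in wild type (log2 fold change -1.32, SE 0.191). SPMIT.03 had 15, 35 and 36 counts in delta4dus and 67, 37 and 25 in wild type (-1.43, SE 0.229). Both fell with an edgeR adjusted p of 2.25e-08 for SPMIT.02 and 3.41e-07 for SPMIT.03. SPMIT.08 had 12, 41 and 34 counts in delta4dus and 59, 15 and 31 in wild type (-1.11, SE 0.244). Its groups came nearest to each other, at 21.8 CPM in delta4dus B and 23.4 CPM in wild-type B. SPMIT.09, below the minimum for enough counts, had 6, 8 and 12 counts in delta4dus and 21, 5 and 11 in wild type. Its log2 fold change of -1.33 (SE 0.381, edgeR adjusted p = 0.00463) did not pass with DESeq2 (adjusted p = 0.0659) or without wild-type replicate A (edgeR adjusted p = 0.0658, where 10 of the 11 rows passed and 9.59% of all rows were called lower). With DESeq2, the other 10 rows passed, where 7.44% of all rows were called lower. Their DESeq2 adjusted p ran from 4.85e-06 (SPMIT.02) to 0.0246 (SPMIT.06). For SPMIT.01 it was 0.0103, against an edgeR adjusted p of 1.58e-16, and for SPMIT.06 the edgeR value was 3.15e-12. The size of the edgeR p-values thus depends strongly on the method.

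**Figure D2:**
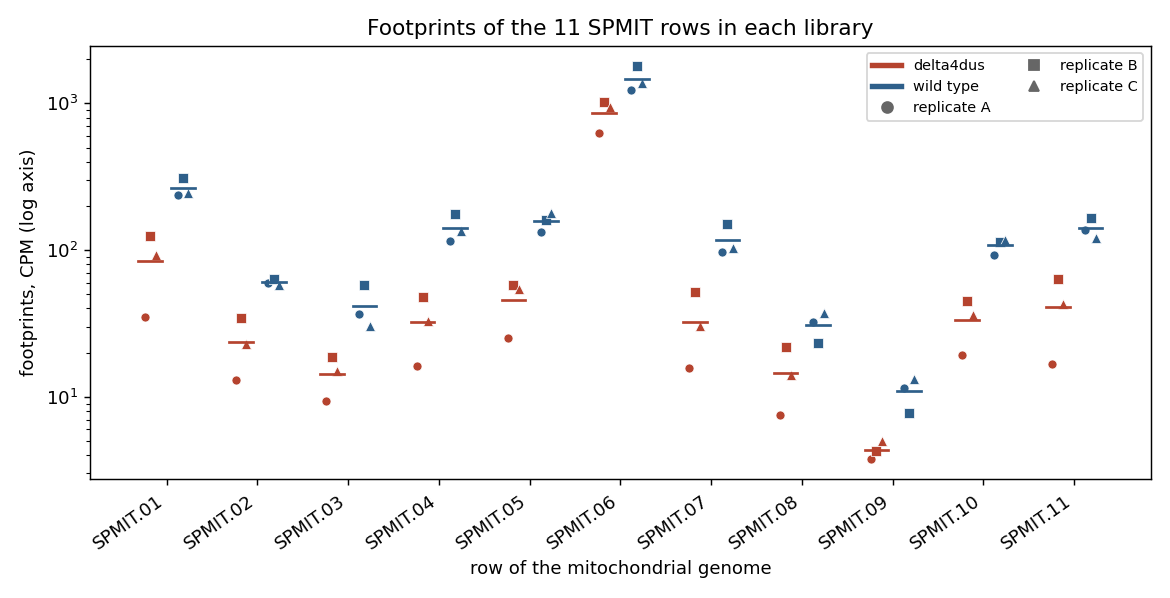
Footprint level of each SPMIT row in CPM on a log axis, with delta4dus (red) left of wild type (blue); marker shapes are replicates A, B and C and horizontal lines are group means. In all 11 rows the 3 delta4dus points lie below the 3 wild-type points, and replicate A is the lowest delta4dus point in each row.

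Among the delta4dus libraries, replicate A had the fewest SPMIT footprints at every row. For the 10 rows with enough counts, its CPM was 31.6% to 64.0% of the mean of delta4dus B and C (median 43.2%). Of 3821 rows in the table with a mean of at least 20 counts, 19 (0.497%) were under 50% by this measure, a comparison chosen after seeing the data, and 8 of these 19 were SPMIT rows. The median over the 3821 rows was 100%. In the wild-type libraries the same measure, each library against the mean of the other two, was under 50% for no SPMIT row. Without delta4dus A, the log2 fold changes ran from -1.76 for SPMIT.04 to -0.56 for SPMIT.06, all 11 rows still passed with edgeR, where 12.1% of all rows were called lower, and the SPMIT median was -1.26. The delta4dus share of all footprint counts was then 0.13%, or 47.5% of wild type.

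**Figure D3:**
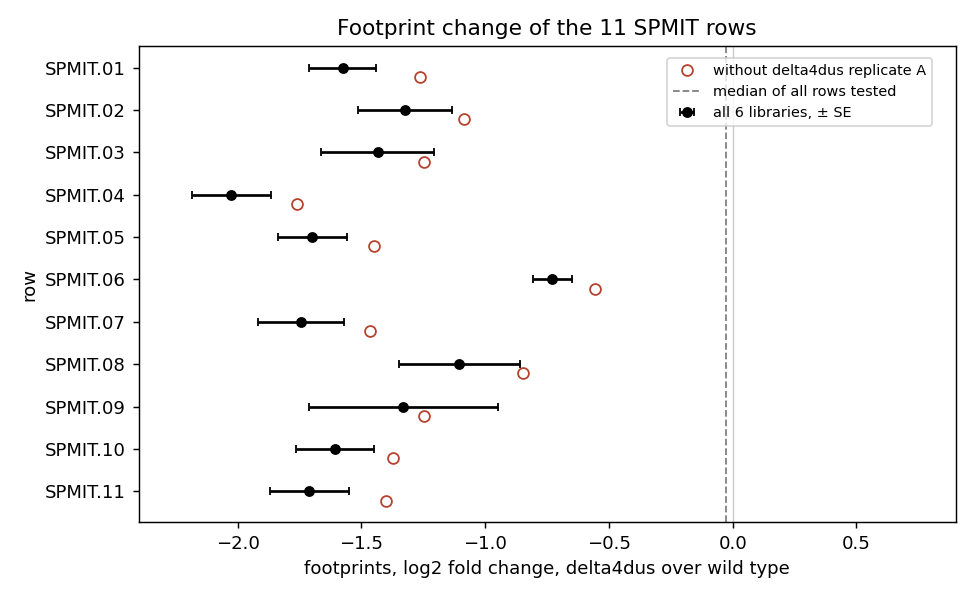
Log2 fold change of footprints, delta4dus over wild type, for each SPMIT row: filled points with bars are edgeR estimates ± SE from all 6 libraries, open red circles leave out delta4dus replicate A, and the dashed line is the median of all rows tested (-0.03). SPMIT.06 is nearest to 0 at -0.73 and SPMIT.04 farthest at -2.03, and every open circle lies to the right of its filled point.

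SPMIT.06 and the other 10 rows did not fall in proportion. SPMIT.06 made up 79.6%, 68.5% and 73.2% of SPMIT footprint counts in delta4dus A, B and C, against 56.5%, 59.5% and 57.1% in wild type. The mean was 73.8% ± 5.57 in delta4dus and 57.7% ± 1.62 in wild type (SD, n = 3 each). The groups did not overlap, and the exact two-sided permutation test gave p = 0.1, the smallest possible, or 0.143 after Benjamini-Hochberg adjustment over the 10 rows compared. Taken without SPMIT.06, the other 10 rows held 259, 884 and 831 counts in delta4dus and 1738, 788 and 861 in wild type. Their share of all footprint counts averaged 0.0304% ± 0.0148 in delta4dus and 0.115% ± 0.0151 in wild type (SD, n = 3 each), so delta4dus was at 26.3% of wild type. For SPMIT.06 alone it was at 50.8%.

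Within those 10 rows the makeup differed less. Measured as a share of the SPMIT counts without SPMIT.06, 3 of 9 rows compared did not overlap between the groups. The exact permutation p cannot go below 0.1 with 3 against 3, so no adjusted p could be under 0.05. For reference, 38.8% of all rows tested did not overlap in footprint level, a different measure, in either direction. The 3 rows are described here and are not taken as established differences. SPMIT.04 made up 10.0%, 10.2% and 9.51% in delta4dus, against 12.1%, 14.3% and 12.9% in wild type. SPMIT.02 had a mean of 7.36% ± 0.745 in delta4dus and 5.66% ± 0.511 in wild type, and SPMIT.08 of 4.45% ± 0.314 and 2.97% ± 0.926 (SD, n = 3 each). Each of these 3 differences had an exact permutation p of 0.1 and an adjusted p of 0.3. SPMIT.01, the row with most of these counts, had 25.0% ± 2.9 in delta4dus and 24.7% ± 0.89 in wild type, a difference within the spread between libraries (exact permutation p = 1).

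**Figure D4:**
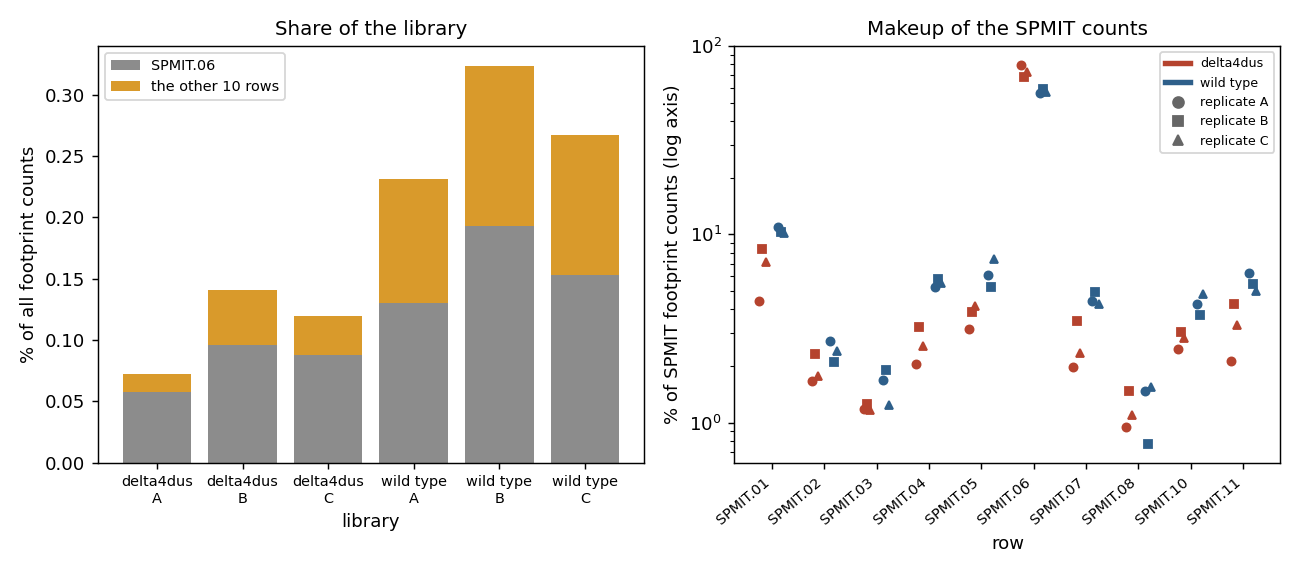
Left, percent of all footprint counts held by SPMIT.06 (grey) and by the other 10 SPMIT rows (orange) in each library; right, percent of SPMIT footprint counts held by each of the 10 rows with enough counts, on a log axis, with delta4dus (red) left of wild type (blue). The 3 delta4dus columns reach 0.0726% to 0.141% and the 3 wild-type columns 0.231% to 0.323%, and in the right panel SPMIT.06 is the row whose delta4dus points all lie above the wild-type points.

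The SPMIT rows varied together over the 6 footprint libraries. Pearson's r of log2 CPM between SPMIT.06 and each of the other 9 rows with enough counts ran from 0.814 (SPMIT.08) to 0.974 (SPMIT.07), a description over libraries that also differ in genotype. Among 3811 nuclear rows with a mean of at least 20 counts, the 5 most like SPMIT.06 over these 6 libraries were mib1 (r = 0.988), uso1 (0.985), SPAC521.03 (0.985), sea4 (0.98) and SPAC17G6.03 (0.98). Mib1 is annotated as a DNAJC11 family protein, uso1 as a tether between endoplasmic reticulum and Golgi and sea4 as a GATOR2 subunit, while SPAC521.03 is annotated as a dehydrogenase and SPAC17G6.03 as a phosphatase. Of these 5, SPAC17G6.03 fell by 0.74 and sea4 by 0.72 on the log2 scale (edgeR adjusted p = 2.62e-13 and 0.00451). The other 3 did not pass, where 14.1% of all rows were called lower. All 5 were picked for likeness to a row that fell in delta4dus, over the same libraries, so these falls are not a separate result. How often such r values arise by search among 3811 rows over 6 libraries was not tested.

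Nuclear genes that serve the mitochondrial genome or its products were set beside the SPMIT rows in 3 lists. The list of subunits of complexes III, IV and V made in the cytosol, the partners of mitochondrially encoded subunits, was mostly higher in footprints. It also holds cytochrome c and an ATPase inhibitor, inh1, both called higher, and is named the nuclear subunits below. Of the 31 rows of this list tested, 25 rose, none fell and 6 did not pass, where 14.5% of all rows were called higher. The list median log2 fold change was 0.29. Qcr8 of complex III averaged 259 ± 12.4 CPM in delta4dus and 156 ± 7.33 CPM in wild type (SD, n = 3 each), a log2 fold change of 0.70 (edgeR adjusted p = 2.16e-11). The Rieske iron-sulfur protein rip1 and cytochrome c (cyc1), which carries electrons from complex III to complex IV, rose by 0.60 and 0.42. With total counts as library sizes, 8 of the 31 rose and 2 fell, where 7.41% of all rows were called higher and 31% lower. The list median was then 0.08, or 0.31 above the median of all rows as with TMM. With DESeq2, 18 rose, where 10.7% of all rows were called higher. Over 4490 rows with a coding length, fold changes had a Spearman rho of -0.343 with that length, and these subunits are short (median 414 bases, against 1173 for all rows tested). The part of length in their rise was not tested.

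Set against these subunits in the same library, SPMIT footprint counts were fewer in delta4dus. There were 10.4, 19.4 and 16.7 SPMIT counts per 100 counts of the 31 nuclear subunits in delta4dus A, B and C, against 34.3, 49.5 and 39.4 in wild type. The mean was 15.5 ± 4.63 in delta4dus and 41.1 ± 7.74 in wild type (SD, n = 3 each). This ratio needs no scaling between libraries, and its groups did not overlap. It puts together the lower SPMIT counts and the higher subunit counts already given above, so it is not a separate result.

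Proteins of the mitochondrial ribosome, all nuclear-encoded in this list, mostly did not pass the test. Of the 76 rows in the test, 68 did not pass; 6 were higher in delta4dus and 2 lower, with a list median of 0.03, where 14.5% of all rows were called higher and 14.1% lower. With total counts as library sizes 1 rose and 11 fell, where 7.41% of all rows were called higher and 31% lower, and the list median was -0.17, or 0.06 above that of all rows under both scalings. On that unadjusted scale the list held 0.316%, 0.315% and 0.325% of footprint counts in delta4dus A, B and C, against 0.345%, 0.347% and 0.371% in wild type, and the groups did not overlap. Mrps9, a small-subunit protein, had 219 ± 8.4 CPM in delta4dus and 146 ± 16.3 CPM in wild type (SD, n = 3 each; log2 fold change 0.55, edgeR adjusted p = 1.7e-07). Mrpl16 of the large subunit and rsm19 of the small subunit rose by 0.64 and 0.50.

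The list for mitochondrial transcription, RNA processing, translation and membrane insertion had 31 members tested in footprints. Of these, none rose, 5 fell and 26 did not pass (median -0.09), where 14.5% of all rows were called higher and 14.1% lower. With total counts as library sizes none rose and 9 fell, where 7.41% of all rows were called higher and 31% lower. Under both scalings the falls were near the share over all rows, so they are not read as a trait of the list. Among the 5 was rpo41, the mitochondrial RNA polymerase, at 22.1 ± 0.663 CPM in delta4dus and 40.9 ± 6.8 CPM in wild type (SD, n = 3 each; log2 fold change -0.81, edgeR adjusted p = 0.000934). Mss116, a DEAD-box RNA helicase, had 39.3 ± 1.74 CPM in delta4dus and 82.6 ± 9.29 CPM in wild type (-1.05). Ppr5, one of the pentatricopeptide repeat proteins that bind organellar RNA, had 53.9 ± 3.21 CPM in delta4dus and 118 ± 8.3 CPM in wild type (-1.16). The coding lengths of ppr5, rpo41 and mss116 are 3786, 3465 and 1608 bases, all above the 1173 of the median row, and the median of the list is 1320; the part of length in their fall was not tested either. As a share of all counts, on the scale where most calls over all rows were lower, the list held 0.101%, 0.102% and 0.102% of footprint counts in delta4dus A, B and C, against 0.131%, 0.133% and 0.14% in wild type. The symbol par1 in this list names a protein phosphatase 2A subunit in the reference. The list also holds cox17 and sco1, annotated as copper chaperones, and cox10, annotated as a protoheme IX farnesyltransferase, none of them called in footprints.

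In total RNA, few members of these lists passed, and no value there is taken for the mRNA of a named gene, since counts did not follow the row's own footprints over nuclear rows. With edgeR, of 13 nuclear subunit rows tested there, none rose and 1 fell, of 63 ribosomal protein rows 6 rose and 6 fell, and of 23 rows of the expression list 1 rose and 2 fell, where 12.5% of all rows were called higher and 10.4% lower. These splits moved with the method. With total counts as library sizes, 9 ribosomal protein rows rose and 2 fell and 4 expression rows rose and none fell, where 21.8% of all rows were called higher and 2.14% lower. With DESeq2, 1 ribosomal protein row rose and 6 fell and no expression row rose and 3 fell, where 6.04% of all rows were called higher and 11.1% lower.

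For the ratio of footprints to total RNA, the direction of the calls over all rows turned with the method, so the lists are given under each. Total RNA counts did not follow a row's own footprints over nuclear rows. The ratio is therefore not taken as the translation of a gene's own mRNA. With edgeR and TMM, 6.34% of all rows were called higher and 13.9% lower. The nuclear subunits then had 4 higher and none lower of 13, the ribosomal proteins 6 higher and 3 lower of 63, and the expression list none higher and 3 lower of 23. With DESeq2, 13.2% of all rows were called higher and 5.05% lower, and the same lists had 5 higher and none lower, 10 higher and none lower, and 1 higher and 1 lower. With total counts as library sizes, 2.07% of all rows were called higher and 37% lower, and the lists had 2 higher and 1 lower, 1 higher and 14 lower, and none higher and 10 lower.

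**Figure D5:**
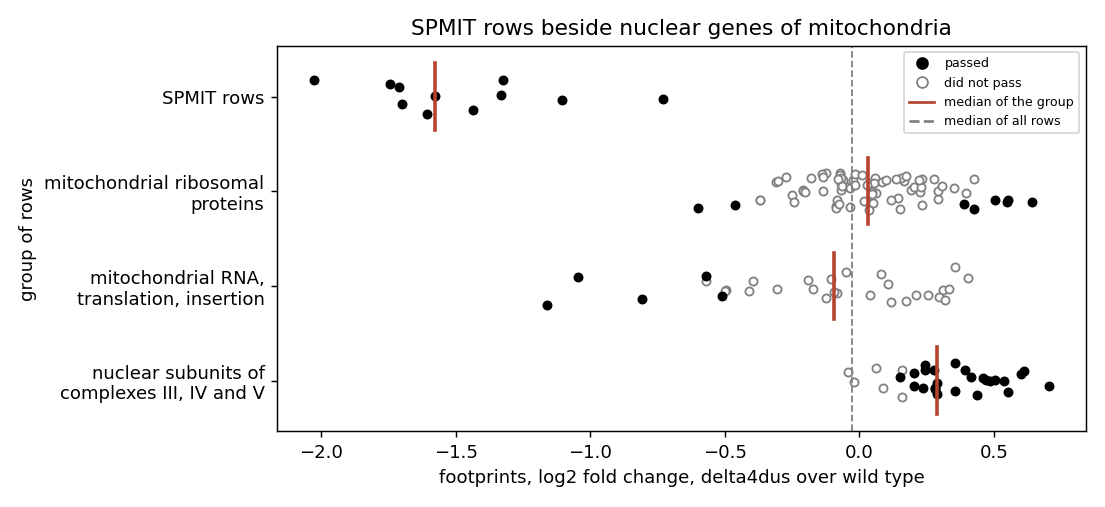
Log2 fold change of footprints, delta4dus over wild type, for the SPMIT rows and the members of 3 lists of nuclear genes of mitochondria; filled points passed at an edgeR adjusted p under 0.05, red lines are group medians and the dashed line is the median of all rows. The SPMIT median is -1.58, while the list medians are 0.03, -0.09 and 0.29 from top to bottom.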

How the data were processed

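The 12 libraries are 3 of delta4dus and 3 of wild type, for footprints and for total RNA. The authors deposited raw read counts per transcript row. These were the input here, and the main fits scaled them by TMM. Per the submitters' processing notes, Trimmomatic 0.36, Bowtie2 2.4, HISAT2 and featureCounts were used on ASM294v2, with no strand setting stated. The authors' deposited comparison table holds log2 fold changes and p-values, per the file headers; it gives none for the SPMIT rows. The 12 count columns were mapped by genotype and letter, with 0 left over. Of 5136 rows, 5107 matched a gene of ASM294v3, used only for names, strands, neighbours and coding lengths.

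Each assay was fitted over the whole table with edgeR 4.0.16 in R 4.3.3 (quasi-likelihood, TMM, default filterByExpr, two-sided, Benjamini-Hochberg over all rows, threshold 0.05), and translational efficiency as the genotype by assay interaction over 12 libraries. The procedure was tested on simulated data. Every SPMIT row is named. Shares were compared by exact permutation over libraries (scipy 1.17.1). Up to 3 called members with the smallest p were named per list. Likeness used log2 CPM with a prior count of 2. The alternatives were DESeq2 1.42.0, other scalings, filters and denominators, a replicate block and leaving out each library. Members and lists were chosen with earlier results of these data known.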

Additional observations from a re-analysis of the deposited data

How the results depend on the processing

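For the 11 SPMIT rows, 118 footprint fold changes under the alternatives all kept their direction and 116 kept their call; the exceptions were SPMIT.09 with DESeq2 (-1.32, adjusted p = 0.0659) and without wild-type replicate A (-1.28, edgeR adjusted p = 0.0658). SPMIT rows called lower numbered 10 to 11 when a library was left out. Over all rows, 437 (of 4556) to 584 (of 4566) were called lower in those settings. When a mean of 50 counts was required, 8 of 8 SPMIT rows were called lower, as were 499 of all 2530 rows tested. In that setting 3 SPMIT rows were not tested. The difference in mitochondrial share of footprint counts, delta4dus minus wild type, ran from -0.184 to -0.138 percentage points when a library was left out. Rows whose share of SPMIT footprints did not overlap between genotypes numbered 7 of 10. With a library left out they numbered 7 to 9, where smaller groups separate more easily. Over all rows tested, 38.8% did not overlap in footprint level, a different measure. Shares have a fixed sum, so the higher share of SPMIT.06 lowers the others, and the 7 rows are not separate results. Without SPMIT.06 the count was 3 of 9, a setting that takes out of the total the row whose share was higher in delta4dus. In that setting the differences turned positive for SPMIT.01 (0.272), SPMIT.02 (1.7), SPMIT.03 (0.876), SPMIT.08 (1.49) and SPMIT.10 (0.581 percentage points). With a library left out, the SPMIT.08 difference ran from -0.343 to 0.0435, turning positive without delta4dus A (0.0144), wild-type A (0.0107) or wild-type C (0.0435). Over all rows, calls in footprints numbered 1289, 818 with DESeq2 and 954 to 1203 with a library left out. Total RNA calls were 869 (475 higher, 394 lower), 825 and 81 with total counts as library sizes, 229 and 420 with DESeq2, and 449 to 912 with a library left out (449 without delta4dus A, 493 without delta4dus B, 523 without wild-type A). Translational efficiency calls were 674 (211 higher, 463 lower), 1300 (69 and 1231) with total counts, 438 and 168 with DESeq2, 226 with a mean of 50 counts required, where 736 rows were tested, and 426 to 568 with a library left out (426 without wild-type A). The 3 nuclear lists, with 76, 31 and 31 rows tested, had 38 calls in footprints and 23 with DESeq2. Over all 4505 rows, 14.5% were called higher and 14.1% lower with edgeR, and 10.7% higher and 7.44% lower with DESeq2. The cause of these differences in counts was not tested.

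The letters A to C share no stated source. Same-lettered libraries of the 2 genotypes had correlations of deviations from their group means of 0.0162 to 0.0425 in footprints, where each library was most like its own letter, and of -0.223 to 0.0181 in total RNA. With the replicate letter as a block, all 11 SPMIT rows were still called lower, and calls over all rows numbered 1140 in footprints, 494 in total RNA and 624 for translational efficiency; the exact sign-flip test of the share gave p = 0.25, the smallest for 3 pairs. Depth limits SPMIT.09 most, with 5 to 21 counts per library, and total RNA gives no value for any SPMIT row.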
